A study of Mus musculus with 12 samples.

Results

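The genes described are the feedback inhibitors and the transcriptional targets of ERK signalling, a set of 10 genes: Dusp6, Dusp4, Spry1, Spry2, Spry4, Spred1, Spred2, Etv1, Etv4 and Etv5. They are 10 of the 50600 genes in the count table, found there by Ensembl identifier and mouse symbol. The set was chosen by the levels of these genes in the same 12 libraries, with their differences already known, so their levels, fold changes and calls are given as a description, and no p-value is given for them. The cells came from the dentate gyrus (DG), a part of the hippocampus, of Nestin-GFP mice of 6 to 9 weeks, whose GFP reporter is driven by regulatory sequence of Nestin, a gene of neural stem and progenitor cells. Live cells negative for CD31 (endothelial), CD45 (blood), O1 and O4 (oligodendrocyte lineage) were sorted into 3 cell types. Stem cells carried both GFP and GLAST (the glutamate transporter encoded by Slc1a3), progenitors carried GFP alone, and astrocytes carried GLAST alone. Each cell type had 4 libraries of 50 cells, all from mice that carry the reporter. The mice were anesthetized with ketamine and xylazine and perfused before dissection, and no experimental treatment is named. In the table, the stem cell columns carry the numbers 1 to 4, and the astrocyte and progenitor columns carry no number and are called a to d here.

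Growth factor receptors on the cell surface activate Ras, which starts a chain of kinases whose last member, ERK, acts in the cytoplasm and the nucleus. ERK activity switches on the genes of its own inhibitors, and for this reason the transcripts of Dusp6, the Sprouty genes and the Etv factors are widely read as a record of recent ERK activity. In the brain, the pathway responds to FGF, EGF, PDGF and neurotrophins, and it acts in the growth of stem and precursor cells and in the activity response of neurons.

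Of the 10 genes, 6 had their highest mean level in progenitors (Dusp6, Dusp4, Spry1, Spry4, Spred2 and Etv1) and 4 in astrocytes (Spry2, Spred1, Etv4 and Etv5). Without astrocyte a, a library that stands apart by its markers, the numbers were 5 in progenitors, 3 in astrocytes and 2 in stem cells: Spred1 and Etv5 were then highest in stem cells and Etv1 in astrocytes. Dusp6 and Spry4 had the same order, progenitors above stem cells above astrocytes, with no overlap between libraries of any 2 cell types. Dusp4 and Spry1 were at or near 0 outside progenitors, apart from Dusp4 in 1 stem cell library. Spred1 went the other way, with all 4 progenitor libraries below all the others. Levels are given as CPM (counts per gene divided by library size, with sizes scaled by TMM), and "called" means an adjusted p below 0.05 in edgeR's quasi-likelihood test over all genes tested in a comparison.

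All 10 genes were tested in astrocytes over progenitors, where 4 were called lower in astrocytes (Dusp6, Dusp4, Spry1 and Spry4) and 0 higher, beside 6.18% of all 14806 genes tested called lower and 2.45% called higher. The libraries of the 2 cell types did not overlap for 5 genes, 4 lower in astrocytes (background 14.9%) and 1 higher, Spred1 (background 6%). In progenitors over stem cells, also with all 10 tested, 2 were called higher (Spry1 and Spry4; background 4.95%) and 1 lower (Spred1; background 3.66%). There the libraries did not overlap for Dusp6, Spry1, Spry4 and Etv1, all higher in progenitors (4 genes, background 11.6%), and for Spred1, lower in progenitors (1 gene, background 7.71%). In astrocytes over stem cells, 8 genes were tested, Dusp4 and Spry1 having too few counts. None of these 8 was called by edgeR (0 genes, background 0.0468% higher and 0% lower). An unadjusted p below 0.05 was reached by 2 of them, beside 1226 of all 12831 genes tested. DESeq2 called 2 lower, Dusp6 and Spry4, beside 274 of the 12831. Those 2 were also the genes whose libraries did not overlap there, both lower in astrocytes (background 6.27%), and no gene was higher in all astrocyte libraries (background 3.71%). Because the calls and the list come from the same libraries, nothing is read from these shares. The median log2 fold change over the tested genes of the set was -1.24 in astrocytes over progenitors, 0.83 in progenitors over stem cells and 0.22 in astrocytes over stem cells, beside 0.03, 0.04 and 0.14 over all genes tested.

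**Figure D1:**
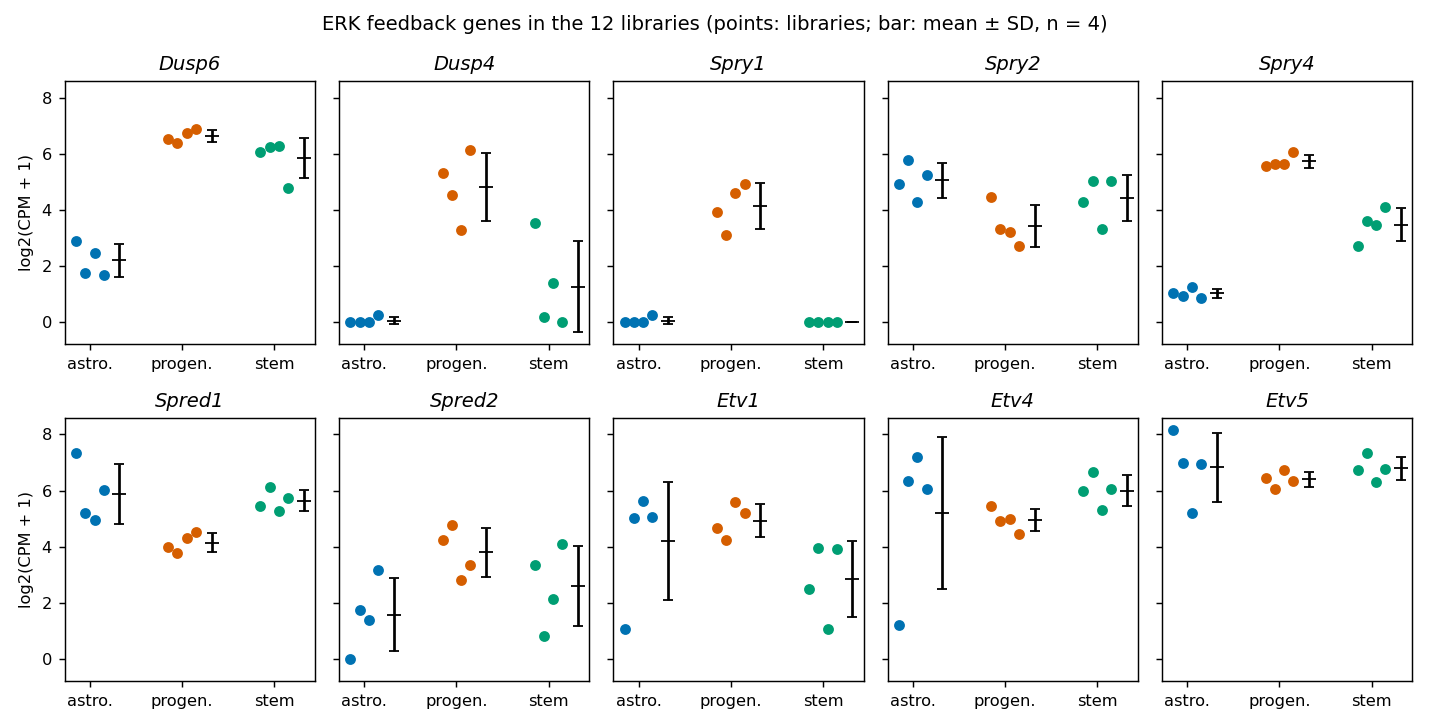
Level of each ERK feedback gene in the 12 libraries, as log2(CPM + 1) on the vertical axis, with 1 point per library and the mean ± SD (n = 4) beside each cell type. Dusp6 and Spry4 separate all 3 cell types, Dusp4 and Spry1 are high in progenitors, and the astrocyte points of Etv4, Etv1 and Etv5 are spread widely.

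The libraries held between 5031166 and 12535028 counts on genes, with every progenitor library above every astrocyte library. The paper describes the astrocyte cDNA as suboptimal, and astrocytes had the fewest transcripts passing its filter for even read coverage. No molecular identifiers are named for these libraries, so counting error is only a part of the error. A cell type is said to be at the floor where none of its libraries held over 3 counts. Folds against such a cell type are taken over 3 counts in each of its libraries, as lower bounds by counting. The signal dropouts that the paper describes for such data are not covered by these bounds. The defining markers fitted the labels in part. Astrocyte markers (8 genes, summed level) lay between 17434 and 23153 CPM in astrocytes and between 26977 and 35202 CPM in stem cells, and at 8396 to 11115 CPM they were still abundant in progenitors. Progenitor and immature neuron markers lay between 1082 and 1882 CPM in progenitors and at most at 426 CPM elsewhere. Stem cell markers (8 genes, summed level) lay between 1067 and 1859 CPM in stem cells. They lay between 720 and 1211 CPM in astrocytes and between 510 and 653 CPM in progenitors. Of 6 tested, 3 were called lower and 1 higher in progenitors than in stem cells. Nes, the gene behind the reporter and a member of this list, had its highest mean in progenitors, at 9.93 ± 8.83 CPM (SD, n = 4). It was at 0 in all astrocytes and at most at 0.524 CPM in stem cells. Oligodendrocyte precursor markers (7 genes, among them Pdgfra, Cspg4, Sox10 and Olig1) lay between 1887 and 3173 CPM in progenitors, 43.4 and 327 CPM in astrocytes, and 63.9 and 145 CPM in stem cells. Astrocyte a stood apart by summed markers. Its oligodendrocyte sum was 2956 CPM (213 to 1292 CPM in astrocytes b to d) and its mature neuron sum 1346 CPM (181 to 375 CPM). Its precursor sum was 327 CPM (43.4 to 200 CPM) and its progenitor and immature neuron sum 426 CPM (11.9 to 222 CPM). It held 2176 CPM of the myelin gene Mbp, 275 CPM of Pdgfra, 119 CPM of Neurod1 and 405 CPM of the neuronal gene Slc17a7. Not every marker was highest there. Olig1 was at 41.2 CPM, beside 180 CPM in astrocyte c, and Mobp at 342 CPM, beside 580 CPM in astrocyte b. Values that turn on astrocyte a are given with and without it, an alternative chosen after seeing the data where no test was refitted. In these bulk libraries, fewer cells of a type and less RNA per cell cannot be told apart.

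Dusp6 encodes a cytoplasmic phosphatase that removes the activating phosphates from ERK itself, and it was the highest of the set per exonic length in progenitors. The gene lies on chromosome 10 (99263231 to 99267489, forward strand, GRCm38). Its level was 91.5, 83.4, 107 and 116 CPM in progenitors a to d, 65.8, 74.8, 77.3 and 26.5 CPM in stem cells 1 to 4, and 6.51, 2.38, 4.59 and 2.24 CPM in astrocytes a to d. All progenitors were above all stem cells, which were above all astrocytes, with stem cell 4 the lowest of the stem cells. The means were 99.3 ± 14.5, 61.1 ± 23.6 and 3.93 ± 2.03 CPM (SD, n = 4), so that progenitors had 25.3 times and stem cells 15.5 times the astrocyte mean. The fitted log2 fold change was -4.69 (SE 0.70) in astrocytes over progenitors and -3.97 (SE 0.94) in astrocytes over stem cells. Progenitors and stem cells were much closer, at 0.68 (SE 0.33), and at 0.44 without stem cell 4. Even the lowest astrocyte library held 11 counts of Dusp6, above the floor.

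Dusp4 encodes a nuclear phosphatase of ERK and related kinases (chromosome 8, 34807297 to 34819894, forward strand). It was at 39.4, 22.5, 8.67 and 69.7 CPM in progenitors and at 10.5, 0.131, 1.62 and 0 CPM in stem cells. Of the astrocytes, a to c had no count and d had 1 count (0.204 CPM). The progenitors varied more among themselves for Dusp4 (coefficient of variation 75%) than for Dusp6 (14.6%), and progenitor c was below stem cell 1. Astrocytes were at the floor, and the progenitor mean of 35.1 ± 26.3 CPM (SD, n = 4) was 58.2-fold above that floor. The progenitor mean was 11.4 times the stem cell mean of 3.07 ± 5.02 CPM, a log2 fold change of 3.47 (SE 1.36). This value rests on stem cell 1: without it the log2 fold change was 5.79, and edgeR then called it. Dusp6 and Dusp4 were thus unlike each other in stem cells, where the Dusp6 mean was within a factor of 1.63 of that in progenitors and Dusp4 was at most at 1.62 CPM in 3 of 4 libraries.

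The Sprouty genes encode inhibitors that act between the receptor and the ERK kinases, and their members are induced by the pathway they restrain. Spry1 (chromosome 3, 37639947 to 37644598, forward strand) was detected in progenitors, at 14.1, 7.65, 23.7 and 29.6 CPM. It had 0 counts in all 4 stem cell libraries, and 1 count in astrocyte d was the only one among the astrocytes. Stem cells and astrocytes were both at the floor. The progenitor mean of 18.8 ± 9.79 CPM (SD, n = 4) was 45.9-fold above that floor in stem cells and 31.2-fold above that in astrocytes. Of its exonic length, 24.4% is overlapped by Gm42922 on the opposite strand, and the authors counted without regard to strand, so reads of the 2 genes cannot be told apart in that stretch.

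Spry4 (chromosome 18, 38586247 to 38601415, reverse strand) was the most even of the set in progenitors apart from Dusp6, at 47.1, 48.9, 48.9 and 66.7 CPM. Stem cells had 5.56, 11.1, 10.2 and 16.4 CPM, and astrocytes 1.09, 0.916, 1.40 and 0.815 CPM. The 3 cell types did not overlap. The means were 52.9 ± 9.23, 10.8 ± 4.44 and 1.05 ± 0.254 CPM (SD, n = 4), a ratio of 4.89 between progenitors and stem cells and of 10.3 between stem cells and astrocytes. The fitted log2 fold change was 2.26 (SE 0.43) in progenitors over stem cells, -5.66 (SE 0.86) in astrocytes over progenitors and -3.36 (SE 1.12) in astrocytes over stem cells. With 4 to 7 counts in each astrocyte library, the astrocyte values are close to the floor of 3 counts.

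Spry2 (chromosome 14, 105891947 to 105896819, reverse strand) had the reverse order of Spry4, and it was lowest in progenitors, where Spry1 was highest. Its level was 29.7, 54.2, 18.7 and 36.7 CPM in astrocytes, 18.5, 32.2, 8.98 and 31.7 CPM in stem cells, and 21.2, 8.95, 8.30 and 5.56 CPM in progenitors. Neighbouring cell types overlapped, and progenitor a lay above astrocyte c. The means were 34.9 ± 14.9, 22.9 ± 11.2 and 11 ± 6.96 CPM (SD, n = 4). The log2 fold change was 1.64 (SE 0.84) in astrocytes over progenitors, -1.07 (SE 0.64) in progenitors over stem cells and 0.59 (SE 0.87) in astrocytes over stem cells. None of these was called by edgeR, while DESeq2 called Spry2 higher in astrocytes than in progenitors. In astrocytes, Spry2 was the Sprouty gene with the highest level, above 83% of the 22244 genes with a count and a known length when ranked per exonic length, beside 21.9% for Spry4 and 2.94% for Spry1.

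Dusp6 and Spry1, which were high in progenitors, and Spry2, which was low there, are shown with the bases just upstream of their start sites, so that the sequences of genes highest and lowest in progenitors can be compared. The runs are the 250 bases before the RefSeq start site on GRCm38.p6, written 5′ to 3′ on the strand of the gene, and capitals would mark a motif match.
Dusp6 (chr10:99262981-99263230, forward strand): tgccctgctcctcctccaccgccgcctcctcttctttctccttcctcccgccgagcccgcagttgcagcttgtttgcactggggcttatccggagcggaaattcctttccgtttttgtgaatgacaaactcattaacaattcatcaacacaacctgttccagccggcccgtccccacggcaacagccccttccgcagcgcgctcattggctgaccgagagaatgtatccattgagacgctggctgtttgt
Spry1 (chr3:37639697-37639946, forward strand): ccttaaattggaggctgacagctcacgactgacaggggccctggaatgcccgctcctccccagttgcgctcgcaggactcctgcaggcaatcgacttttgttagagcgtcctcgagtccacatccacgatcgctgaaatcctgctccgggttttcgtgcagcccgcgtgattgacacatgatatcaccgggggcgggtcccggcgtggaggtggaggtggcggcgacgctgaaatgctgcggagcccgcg
Spry2 (chr14:105896820-105897069, reverse strand): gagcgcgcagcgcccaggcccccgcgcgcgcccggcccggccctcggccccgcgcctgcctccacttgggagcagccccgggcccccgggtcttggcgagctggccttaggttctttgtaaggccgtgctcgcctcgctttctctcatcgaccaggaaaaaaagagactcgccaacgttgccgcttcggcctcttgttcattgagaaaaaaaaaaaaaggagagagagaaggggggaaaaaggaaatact
Motifs of factors that ERK and related signals act on were searched on both strands in the 9 upstream runs of the 7 genes of the set that were matched and used (Dusp6, Spry1, Spry2, Spred1, Spred2, Etv1 and Etv5). The motifs were the ETS core CCGGAA, present in 12% of 32851 such promoters, the AP-1 site TGANTCA (6.75%), the CRE TGACGTCA (1.55%), the EGR site GCGNGGGCG (4.7%) and the CArG box (1.47%). There were 0 matches, so all letters are in lower case. This says only that these letters are not in these windows.

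Spred1 and Spred2 encode relatives of the Sproutys that bring the Ras inactivator neurofibromin to the membrane. Spred1 (chromosome 2, 117121374 to 117182279, forward strand) was at 160, 35.6, 29.7 and 64.2 CPM in astrocytes and at 42.8, 68.5, 37.5 and 52.0 CPM in stem cells. In progenitors it was at 14.9, 12.6, 19.0 and 22.0 CPM, below every library of the other cell types. The means were 72.3 ± 60.2, 50.2 ± 13.6 and 17.1 ± 4.19 CPM (SD, n = 4), so that stem cells had 2.93 times the progenitor mean. The log2 fold change in progenitors over stem cells was -1.57 (SE 0.37), and with 1 library left out it was called in 2 of 8 fits, those without stem cell 1 or stem cell 3, with values between -1.69 and -1.40 over the 8. In astrocytes over progenitors it was 2.03 (SE 0.75) and not called by edgeR, while DESeq2 called it higher in astrocytes. It was 1.33 without astrocyte a, whose level was above that of every other library. Astrocytes and stem cells overlapped, at 0.50 (SE 0.71), and the sign turned without astrocyte a, to -0.23.

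Spred2 (chromosome 11, 19924375 to 20024026, forward strand) was lower and less even. Astrocytes had 0, 2.38, 1.60 and 7.95 CPM, progenitors 18.0, 26.3, 6.02 and 9.33 CPM, and stem cells 9.27, 0.786, 3.37 and 16.2 CPM. Each pair of cell types overlapped, and the coefficient of variation was 61.1% in progenitors, 92.6% in stem cells and 116% in astrocytes. The log2 fold change was -2.33 (SE 1.36) in astrocytes over progenitors, 0.98 (SE 0.92) in progenitors over stem cells and -1.32 (SE 1.48) in astrocytes over stem cells, none of them called. Single libraries moved these values: without astrocyte d the first was -3.48 and the last -2.49, and without stem cell 4 the second was 1.72 and the last -0.59. The mean of Spred1 was lowest and that of Spred2 highest in progenitors, though for Spred2 the order lay within the spread.

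Etv1, Etv4 and Etv5 encode the PEA3 group of ETS transcription factors, which are induced by FGF and ERK signals and act on their target genes. Etv5 (chromosome 16, 22381309 to 22439719, reverse strand) was well expressed in all 3 cell types. It was at 287, 126, 35.9 and 121 CPM in astrocytes, 106, 162, 79.0 and 107 CPM in stem cells, and 86.4, 65.8, 106 and 79.7 CPM in progenitors. The cell types overlapped, and astrocytes a and c held the highest and the lowest of all 12 values. The means were 142 ± 105, 113 ± 34.8 and 84.5 ± 16.7 CPM (SD, n = 4). The log2 fold change was 0.70 (SE 0.57) in astrocytes over progenitors, -0.44 (SE 0.26) in progenitors over stem cells and 0.30 (SE 0.59) in astrocytes over stem cells. Without astrocyte a the first was 0.15 and the last -0.29.

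Etv4 (chromosome 11, 101769742 to 101785371, reverse strand) had a level of 1.30, 79.5, 146 and 66.4 CPM in astrocytes, 63.0, 99.5, 38.6 and 65.6 CPM in stem cells, and 42.6, 29.6, 31.0 and 21.2 CPM in progenitors. Astrocyte a, with 6 counts, was far below the other astrocytes, which were above all progenitors. Stem cells and progenitors overlapped by 1 library on each side, stem cell 3 and progenitor a. The log2 fold change was 1.24 (SE 1.01) in astrocytes over progenitors, 1.65 (SE 0.50) without astrocyte a and 0.65 without astrocyte c. In progenitors over stem cells it was -1.12 (SE 0.36), called by DESeq2 but not by edgeR, and in astrocytes over stem cells it was 0.13 (SE 0.96), ranging from -0.46 to 0.53 when 1 library was left out.

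Etv1 (chromosome 12, 38779380 to 38870484, forward strand) was lowest in stem cells, at 4.64, 14.4, 1.12 and 14 CPM. Progenitors had 24.2, 18.1, 47.2 and 35.6 CPM, all above the stem cells. Astrocytes had 1.09, 31.5, 48.3 and 32.4 CPM, where astrocyte a, with 5 counts, was again the low one. The means were 8.53 ± 6.69, 31.3 ± 12.8 and 28.3 ± 19.7 CPM (SD, n = 4). The log2 fold change was 1.85 (SE 0.76) in progenitors over stem cells and 1.72 (SE 1.29) in astrocytes over stem cells. The latter ranged from 1.32 to 2.11 when 1 library was left out. Without astrocyte a, the astrocyte mean was 37.4 ± 9.42 CPM (SD, n = 3), and astrocytes b to d were all above the stem cells. Astrocytes over progenitors stood at -0.15 (SE 1.00), and the sign turned to 0.26 without astrocyte a. Etv1 thus differed from Etv4 and Etv5, whose lowest mean was in progenitors.

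**Figure D2:**
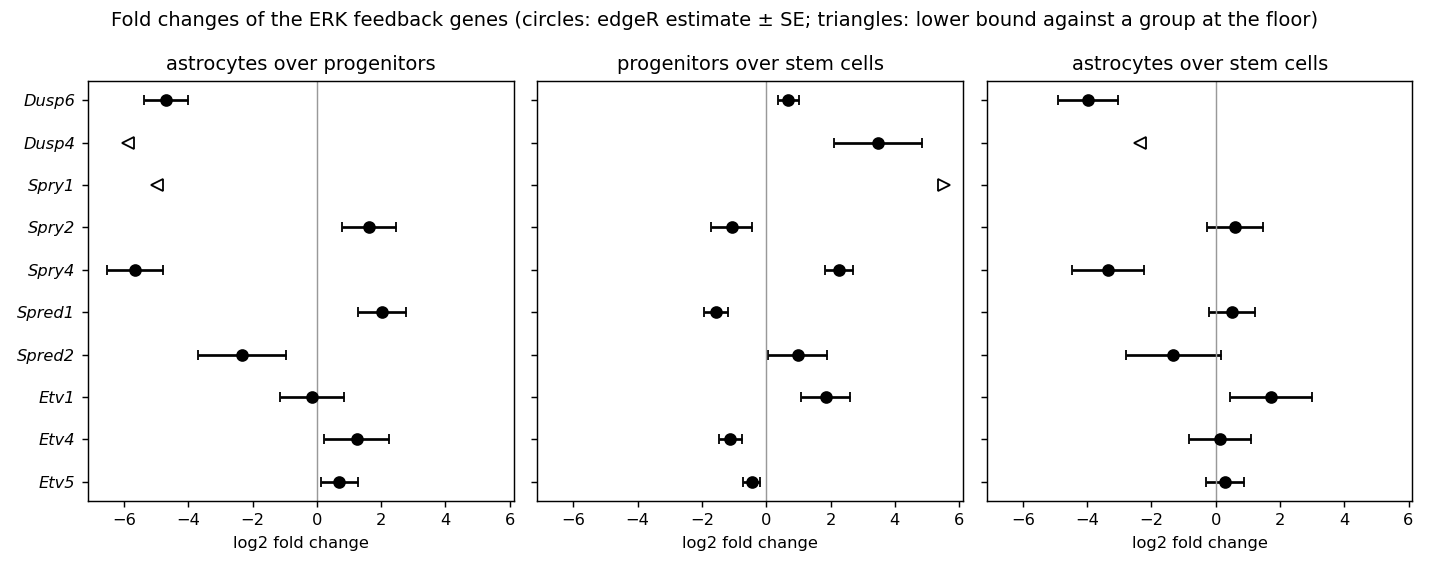
Log2 fold change (horizontal axis) of each ERK feedback gene in the 3 comparisons, with the edgeR estimate ± SE (derived from the F statistic of the test) as circles and lower bounds against a group at the floor as triangles. Dusp6 and Spry4 lie left of 0 in both astrocyte comparisons, at -4.69 and -5.66 against progenitors. With astrocyte a included, the Etv factors lie within 2 SE of 0 there. Without it, Etv4 stood at 1.65 against progenitors, over 2 SE above 0.

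Per exonic length, which allows levels of different genes to be compared, Etv5 was the highest of the 10 in astrocytes (34.7 ± 25.6 CPM per kb) and in stem cells (27.6 ± 8.48 CPM per kb; SD, n = 4). Without astrocyte a, Etv4 was the highest in astrocytes, at 31.4 ± 13.8 CPM per kb, and Etv5 was at 22.9 ± 12.3 CPM per kb (SD, n = 3). Dusp6 was the highest in progenitors, at 31.7 ± 4.64 CPM per kb, with Etv5 next at 20.6 ± 4.08 CPM per kb. Ranked among all genes with a count and a known length, Dusp6 was above 93.6% of genes in progenitors, 87.7% in stem cells and 38.1% in astrocytes. Etv5 was above 92.2% of genes in astrocytes, above 91.4% in stem cells and above 89.6% in progenitors, and Etv4 above 88.1%, 88.9% and 79.1%. Without astrocyte a, the astrocyte values were 87.8% for Etv5, 91.4% for Etv4 and 34.3% for Dusp6. Astrocytes thus held much Etv5 and Etv4 RNA beside little Dusp6 and Spry4 RNA (1.25 and 0.221 CPM per kb), whereas progenitors held all 4.

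**Figure D3:**
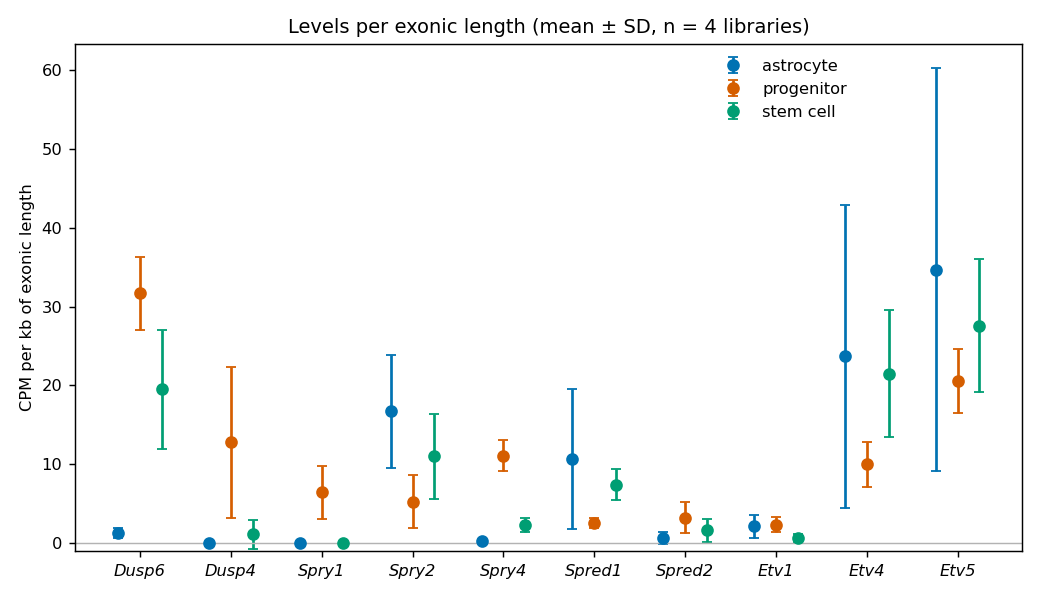
Mean level ± SD (n = 4 libraries) of each ERK feedback gene in CPM per kb of exonic length (vertical axis), by cell type. Dusp6 leads in progenitors at 31.7 and Etv5 in stem cells at 27.6. In astrocytes Etv5 leads at 34.7, but Etv4 does at 31.4 without astrocyte a.

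The spread between libraries differed by cell type. In progenitors the coefficient of variation of the set ran from 14.6% (Dusp6) to 75% (Dusp4). The median was 33.0% over the 13249 genes that reached 10 counts in each progenitor library. Spry4 (17.4%), Etv5 (19.8%), Spred1 (24.5%) and Etv4 (28.2%) also lay below that median. Etv1 (41.0%), Spry1 (52.1%), Spred2 (61.1%) and Spry2 (63.2%) lay above it. In stem cells it ran from 27.1% (Spred1) to 164% (Dusp4), beside a median of 41.6% over 10135 genes. In astrocytes it ran from 24.1% (Spry4) to 116% (Spred2), beside a median of 66.4% over 5971 genes. Spred1 (83.3%), Etv4 (81.0%), Etv5 (73.7%) and Etv1 (69.6%) also lay above that median. Dusp6 (51.6%) and Spry2 (42.7%) lay below it. Without astrocyte a, Spred1, Etv4, Etv5 and Etv1 were at 42.8%, 44%, 53.6% and 25.2%, beside 58.7% over 7447 genes. The spread of these genes in astrocytes was thus smaller without that library, and no other library was left out for comparison. For Etv5, astrocyte a held the highest and astrocyte c the lowest value, so its spread did not rest on astrocyte a alone.

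Oligodendrocyte precursor markers and immediate early genes were high in the progenitor libraries, in which Dusp6, Dusp4, Spry1 and Spry4 were also high. The summed immediate early genes (12 genes, among them Fos, Egr1 and Dusp1, which are also induced while tissue is dissociated) were at 3260 to 6876 CPM in progenitors, 136 to 229 CPM in stem cells and 40.7 to 385 CPM in astrocytes. Of 11 tested, 10 were called higher in progenitors than in stem cells, beside 4.95% of all genes tested. Of 11 tested in astrocytes over progenitors, 6 were called lower, beside 6.18% of all genes tested. Of the 7 oligodendrocyte precursor markers, 6 were called higher in progenitors than in stem cells and 5 lower in astrocytes than in progenitors, beside the same shares. Mural cell markers (6 genes) ranged from 38.5 to 2122 CPM among the progenitors. Progenitor b held that lowest value, and there Dusp6 was at 83.4, Spry4 at 48.9, Dusp4 at 22.5 and Spry1 at 7.65 CPM. Among the progenitors, Dusp6 and Spry1 were lowest in progenitor b, Dusp4 in progenitor c and Spry4 in progenitor a. The part of precursor cells, mural cells and dissociation in the levels of the set was not tested. Endothelial markers were at most at 4.74 CPM and microglia markers at most at 17.3 CPM in progenitors.

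**Figure D4:**
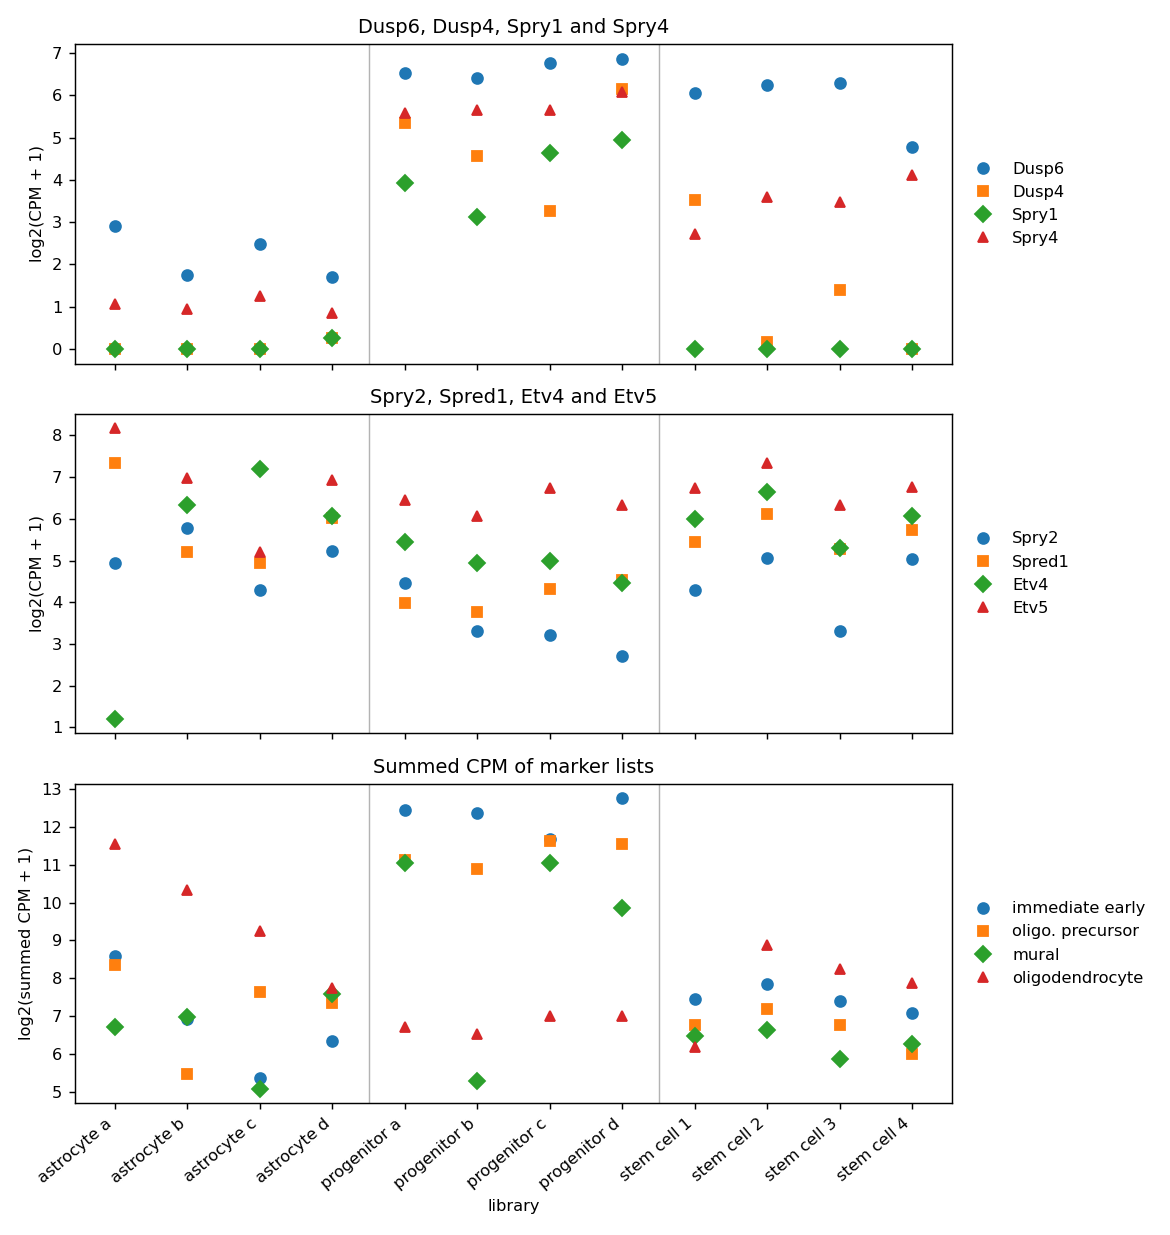
Levels in each of the 12 libraries (horizontal axis) as log2(CPM + 1), for Dusp6, Dusp4, Spry1 and Spry4 (top), Spry2, Spred1, Etv4 and Etv5 (middle), and the summed CPM of 4 marker lists on the same scale (bottom). The immediate early and oligodendrocyte precursor sums are high in all progenitors, at no less than 3260 and 1887 CPM, and the low Etv4 point is astrocyte a.

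The rest of the pathway was read from 5 lists of 105 genes, none of them in the set: receptors, adaptors and exchange factors, the kinase cascade, other inhibitors, and other transcription factors and targets. In astrocytes over progenitors, 3 of 89 tested were called higher and 8 lower, beside 2.45% and 6.18% of all genes tested. Those higher in astrocytes were Rasgrp1, an exchange factor that activates Ras (log2 fold change 3.56, SE 0.71, adjusted p = 0.016), Hras (4.71, SE 0.98, adjusted p = 0.0166) and Rasal2, a Ras inactivator (2.16, SE 0.46, adjusted p = 0.0168; edgeR). The call of Hras was lost without progenitor a (adjusted p = 0.0525) or b (0.0528), and that of Rasal2 without progenitor a or c (0.0539 in both). The 4 lower genes of smallest p were the immediate early factors Egr1 (-9.37, SE 0.72, adjusted p = 0.000288), Fos (-6.85, SE 1.24, adjusted p = 0.0158) and Junb (-7.22, SE 0.86, adjusted p = 0.00248) and the cyclin gene Ccnd1 (adjusted p = 0.00123; edgeR). Ccnd1 was at the floor in astrocytes, and its progenitor mean was 196-fold above that floor. Without astrocyte d, Fos stood at -9.54, without astrocyte c, Junb stood at -8.12, and without progenitor c, Hras stood at 5.54.

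In progenitors over stem cells, 9 of 88 tested were called higher and 6 lower, beside 4.95% and 3.66% of all genes tested. Higher in progenitors were Egr1 (log2 fold change 10.42, SE 0.67, adjusted p = 5.6e-05), Fos (6.48, SE 0.80, adjusted p = 0.00153), Pdgfra, the PDGF receptor of oligodendrocyte precursors (8.49, SE 0.94, adjusted p = 0.00094), and Rasgrf1, an exchange factor (4.55, SE 0.67, adjusted p = 0.00339; edgeR). Lower in progenitors were 3 receptors, Fgfr3 (-1.75, SE 0.28, adjusted p = 0.00502), Ntrk2 (-1.32, SE 0.22, adjusted p = 0.00643) and Egfr (-1.69, SE 0.33, adjusted p = 0.0111), and the Ras inactivator Rasa2 (-1.09, SE 0.24, adjusted p = 0.0196; edgeR). The call of Rasa2 was lost without progenitor a, c or d or stem cell 4, at an adjusted p of 0.05 to 0.071. With all 12 libraries in one fit, the calls of Rasgrf1, Fgfr3, Ntrk2, Egfr and Rasa2 were lost, at adjusted p-values of 0.0787 to 0.28 (edgeR). Without stem cell 3, Pdgfra stood at 10.81, without stem cell 2, Fos stood at 7.35, and without stem cell 1, Rasgrf1 stood at 5.45. By list, 4 of 10 tested receptors were called lower and 1 higher, and 4 of 16 tested transcription factors and targets were called higher. Of 23 tested in the kinase cascade, 1 was called higher, as was 1 of 16 adaptors and exchange factors. Of 23 other inhibitors tested, 2 were called higher and 2 lower. All these stand beside the same 3.66% lower and 4.95% higher of all genes tested. Egr1, Fos and Junb are at once pathway targets and members of the immediate early list, and Pdgfra is a precursor marker. In astrocytes over stem cells, 0 of 75 tested were called by edgeR, beside 6 higher and 0 lower of all 12831 genes tested. An unadjusted p below 0.05 was reached by 8 of the 75, beside 1226 of all genes tested. DESeq2 called 6 of the 75, beside 361 higher and 274 lower of all genes tested.

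The genes most like the 2 most abundant of the set over the 12 libraries were found by Pearson's r of log2(CPM + 1) among the 5613 genes that reached 10 counts in each of the 12 libraries. For Etv5 they were Gm21970 (r = 0.939), Mrps33 (0.928) and Lonp2 (0.927), and for Etv4 they were Smpd2 (0.96), Gm15725 (0.958) and Tspan14 (0.939). These values are a description over libraries that share cell type and depth. By Spearman's rho, 1 of the 3 genes remained among the 3 most like Etv5 and 0 among those most like Etv4. Without astrocyte a, r was 0.871 to 0.924 for the 3 genes of Etv5 and 0.771 to 0.846 for those of Etv4.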

How the data were processed

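The authors deposited raw counts per gene, as whole numbers without normalization, for 12 libraries preamplified with the SMARTer v4 kit. They trimmed adapters, removed PhiX, mitochondrial and ribosomal reads, aligned the rest to GRCm38p4 with HISAT2 (2.0.6 in the submitters' processing notes) and counted on GENCODE M14 genes with featureCounts without strand. Totals were 5031166 to 12535028 counts. Symbols, coordinates and lengths came from GENCODE M21 (50376 of 50600 identifiers matched, and 1 of the 186 listed symbols, Spry3, not matched), and upstream sequences from RefSeq on GRCm38.p6. The sequences of Dusp4, Etv4 and Spry4 were not used here.

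Pairs of cell types were compared in R 4.3.3 by the quasi-likelihood test of edgeR 4.0.16 (TMM sizes, at least 10 counts in at least 4 of 8 libraries, Benjamini-Hochberg threshold of 0.05). Alternatives were DESeq2 1.42.0, DESeq2-type size factors, no filter, at least 10 counts in every library, 1 fit of all 12 libraries, counts thinned to the smallest library, and each library left out (filter then in at least 3 libraries). Both tests were run on simulated counts with known changes. CPM used TMM-scaled sizes over 12 libraries, and a floor of 3 counts per library gave the lower bounds, which do not cover dropouts. Figures used Python 3.11.15 with matplotlib 3.10.9.

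The genes of the set and all lists were chosen with earlier results of these data known. Named beyond the set were up to 4 called pathway genes per direction and comparison with the smallest p, the 3 genes most like each of the 2 most abundant set genes, and marker genes beside a result. Results for 1 item are not reported here. The study states 1 mouse brain per replicate, but the libraries were compared as separate samples. No pair of libraries of a cell type agreed within sampling noise, by the chi-square divided by its degrees of freedom. This was 100 to 169 between astrocytes, 44.7 to 63.2 between progenitors and 46.0 to 68.3 between stem cells.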

Additional observations from a re-analysis of the deposited data

Results flagged for a closer look

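Dusp4 in stem cell 1 was far from the other stem cells, at 10.5 CPM beside 0 to 1.62 CPM, a gap of 0.846 of the group's range. Spry4 in progenitor d was above the other progenitors, at 66.7 CPM beside 47.1 to 48.9 CPM, a gap of 0.908 of the range. Both exceed the 95% limit for 4 samples. Chance alone marks about 1 in 20 groups, and 27 groups of the set were examined. The Spry4 groups did not overlap with or without this library, whereas the Dusp4 difference between progenitors and stem cells moved from 3.47 to 5.79 on the log2 scale without stem cell 1.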

How the results depend on the processing

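No paired analysis was possible because the astrocyte and progenitor columns carry no replicate numbers. The 4 calls of the ERK feedback genes in astrocytes over progenitors numbered 1 with at least 10 counts in every library, since Dusp4, Spry1 and Spry4 were then not tested, and 6 with DESeq2, which added Spry2 and Spred1. The 3 calls in progenitors over stem cells numbered 5 with DESeq2 and 1 with all 12 libraries in one fit, where Spry1 was the one called. The 0 calls in astrocytes over stem cells numbered 2 with DESeq2, 1 with the stricter filter of 10 counts and 2 with all 12 libraries in one fit. The cause was not tested. Among the other pathway genes, the 11 calls in astrocytes over progenitors numbered 22 with DESeq2, 7 without a filter and 4 with the filter of 10 counts in every library, the 15 calls in progenitors over stem cells numbered 5 with all 12 libraries in one fit, and the 0 calls in astrocytes over stem cells numbered 6 with DESeq2 and 1 with all 12 libraries. Leaving out 1 library gave 4 to 4, 2 to 4 and 0 to 0 calls of the set, and 8 to 14, 9 to 16 and 0 to 0 of the other genes, where the 9 came without progenitor d. Over all genes, DESeq2 called 952 higher and 1479 lower in astrocytes over progenitors, against 363 and 915 with edgeR, 1362 and 1032 in progenitors over stem cells against 763 and 564, and 361 and 274 in astrocytes over stem cells against 6 and 0. Of the recomputed fold changes of named genes, 564 were counted as unchanged, 3 as moved and 13 as having lost their call. Genes of the set were judged only by size. Unchanged meant a shift below the SE times the square root of 2, and moved meant a larger one. Other pathway genes were judged by their side of the threshold. The 13 are thus all other pathway genes, and lost calls of the set, such as that of Spred1, are not among them.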
